A study of Mus musculus with 8 samples.

Results

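The genotype by day interaction asks, for each gene, whether the change from day 0 to day 14 of differentiation depended on the HNRNPK 6A mutation. It is the log2 change of mutant cells (day 14 against day 0) minus the log2 change of wild-type (WT) cells, so a value under 0 means a lower response in 6A. All 8 libraries of the series entered it, 2 each of WT at day 0, 6A at day 0, WT at day 14 and 6A at day 14. Of 24421 genes in the count tables, 15458 passed the filter on low counts and were tested, and 733 were called at an adjusted p under 0.05. Called genes were sorted into response types by whether the day 14 against day 0 change of each genotype was itself called. Induction lost held 386 genes, induction gained 84, repression incomplete 133 and repression gained 130, and no called gene fell outside these types.

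All groups were mouse embryonic stem cells of a hybrid CAST/Ei x 129/Sv/Jae background, WT or with the HNRNPK 6A mutation, and no transgene or drug treatment is named for any of them. Day 0 cells had grown with leukemia inhibitory factor on irradiated embryonic fibroblast feeders, which were removed at harvest. Day 14 cells had lost the factor, spent 4 days in suspension as embryoid bodies and were plated on gelatin at day 5. The design sentence of the series names day 7, whereas titles, cell type labels and the protocol name day 14, which is used here. The sources used here do not give what 6A changes in the protein or whether the mutant line is 1 clone.

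Embryoid bodies are aggregates in which stem cells leave pluripotency and form derivatives of the germ layers, among them neural cells, beating heart muscle, blood islands and yolk sac endoderm. Differentiation combines the induction of lineage genes with the repression of pluripotency genes, so a mutation can alter either side of the response. HNRNPK is an abundant nuclear protein that binds cytosine-rich RNA, takes part in splicing and transcription, and links Xist RNA to Polycomb repression on the inactive X chromosome.

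Total counts per library ran from 8146684 to 15540163. The pluripotency genes, which define the labelled day 0 cell type, summed to between 11078 and 11699 normalised read counts scaled to library size (CPM) in the 4 day 0 libraries and to between 1384 and 1762 at day 14. Hnrnpk, the targeted gene, stood at 880.0 and 709 CPM in WT and 527 and 538 in 6A at day 0, and 495 and 474 in WT and 348 and 385 in 6A at day 14. It was lower in 6A on both days and its response to differentiation was not called different (interaction 0.17 ± 0.17, adjusted p = 0.67). The label names a mutation and not a deletion, so this level does not check the genotype labels. Xist, the transcript that silences 1 X chromosome in female cells, rose in both genotypes, from 73.1 and 57.8 CPM to 1126 and 1158 in WT and from 54.6 and 64.7 to 913 and 1019 in 6A, and its interaction was not called (-0.12 ± 0.19, adjusted p = 0.81). Tsix, its antisense partner, fell in both (interaction 0.32 ± 0.24, adjusted p = 0.53), and since strand handling of the counts is not given, reads of the shared stretch cannot be placed with certainty.

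Called interactions lay mainly under 0. Of the genes tested, 4.74% were called in either direction, 3.34% (516 genes) under 0 and 1.4% (217 genes) over 0, while the median over all tested genes was -0.01. A called WT rise was present for 5940 genes (38.4%), and 7.37% of them carried a called interaction of either sign. Of 5690 genes (36.8%) with a called WT fall, 3.62% did. In 6A, 35.4% of tested genes rose and 36.6% fell, and 4897 genes rose and 5004 fell in both genotypes. The interaction is the difference of 4 group means, so its error is larger than that of a single comparison, and 2909 genes were under 0.05 before adjustment.

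**Figure D1:**
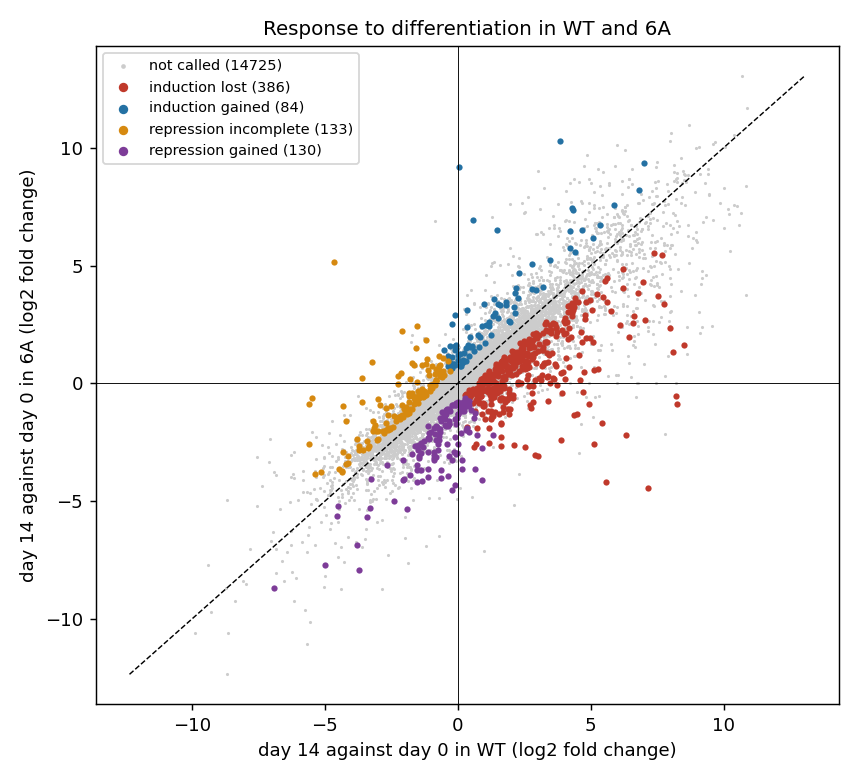
Each point is 1 of 15458 tested genes, with the log2 fold change from day 0 to day 14 in WT on the x axis and in 6A on the y axis. Colours mark the 4 response types and the dashed line marks equal responses. The 386 induction lost genes lie to the right of 0 and under the line, and the 133 repression incomplete genes lie to the left of 0 and above it.

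Within induction lost, 202 genes still rose in 6A but by less, 124 had no called rise in 6A, and 60 rose in WT and fell in 6A. Their median WT change was 2.27 (log2) and their median 6A change 0.59, values that the call itself selects. Within induction gained, 52 genes rose more in 6A and 32 rose in 6A with no called WT rise. Repression incomplete comprised 80 genes that fell less in 6A, 33 whose 6A fall was not called and 20 that fell in WT and rose in 6A. Repression gained comprised 73 genes that fell more in 6A and 57 with no called WT fall. The absolute interaction was over 1 (log2) for 301 of 386, 64 of 84, 66 of 133 and 105 of 130 genes in the same order. The number of calls rested on single libraries. It was 371 without 6A day 0 replicate 2, 350 and 280 without WT day 14 replicate 1 and 2, and 341 and 465 without 6A day 14 replicate 1 and 2. Each of the 733 genes that could be fitted kept its direction in these 5 fits.

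Called neural genes lay under 0. Of 92 distinct tested members of 3 neural lists, 34 were called, each under 0, and 19 of the 34 fell from day 0 to day 14 in 6A while 1 rose. Each of the 3 lists held 8 of the 386 induction lost genes. Among anterior neural regulators 9 of 21 were called under 0 and none over 0 (list median -3.27, against -0.01 over all tested genes). Among neural progenitor genes it was 10 of 29 (median -2.59), and among postmitotic neuron genes 15 of 42 (median -1.82). Over all tested genes 3.34% were called under 0. A group at 3 or fewer counts was present for 13, 12 and 10 tested members in the same order. Genes near 0 elsewhere can pass the filter on low counts through WT at day 14 alone, which favours values under 0. The lists were also chosen with earlier results of these data known, so their shares and medians are descriptions. In bulk cultures, fewer cells of a type and less RNA per cell cannot be told apart. The progenitor count was 4 without 6A day 0 replicate 2. The neuron count was 8 and 7 without WT day 14 replicate 1 and 2, and 8 without 6A day 14 replicate 1.

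Pax6, a transcription factor of forebrain and eye (mm10, chromosome 2, 105668900 to 105697364), stood at 6.29 and 6.85 CPM in WT and 5.56 and 6.68 in 6A at day 0, and 10.3 and 10.9 in WT and 0.869 and 1.16 in 6A at day 14. Both 6A libraries of day 14 lay under every other library, and the genotypes overlapped at day 0. The log2 change was 0.69 in WT and -2.59 in 6A (interaction -3.27 ± 0.36, adjusted p = 0.00027). Dlx1, a homeobox gene of forebrain interneurons, rose in WT from 0.370 and 0.424 to 4.17 and 4.51 CPM, while 6A went from 0.941 and 0.868 to 0.676 and 0.386 (interaction -4.15 ± 0.66, adjusted p = 0.0031). Six3, which marks the most anterior neural plate, gave 96 counts summed over both WT libraries and 1 over both 6A libraries at day 14 (adjusted p = 0.0052). No fitted fold is given for a gene with a group at 3 or fewer summed counts. Otx2, which stem cells already express, followed another course: it fell in both genotypes, from 58.0 and 55.2 to 34.9 and 37.6 CPM in WT and from 50.8 and 62.0 to 18.0 and 19.4 in 6A, and further in 6A (interaction -0.96 ± 0.20, adjusted p = 0.013). Its call was lost without 6A day 0 replicate 2 (adjusted p = 0.085), WT day 14 replicate 2 (0.084) or 6A day 14 replicate 1 (0.079).

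Called progenitor genes were likewise lower in 6A at day 14. Hes5, a Notch target that holds progenitors in an undifferentiated state, reached 16.1 and 12.4 CPM in WT and 0.0966 and 0 in 6A (296 against 1 counts, adjusted p = 0.0036). Zic1, a zinc finger factor of the neural plate, rose to 43.8 and 47.1 CPM in WT and to 3.28 and 3.86 in 6A, from under 1 CPM in each day 0 library (adjusted p = 0.0048, and 0.059 without 6A day 0 replicate 2). Dach1, a nuclear factor of eye and brain, stood at 0.740 and 1.98 CPM in WT and 3.08 and 3.40 in 6A at day 0, and 13.2 and 17.1 in WT and 3.48 and 4.44 in 6A at day 14 (interaction -3.06 ± 0.45, adjusted p = 0.0021). Here the day 0 libraries of 6A were above those of WT and the day 14 libraries below. Rfx4, a regulator of neural tube patterning, reached 5.91 and 7.04 CPM in WT and 0.0966 and 0.193 in 6A, the latter 3 counts in all (adjusted p = 0.0021). Sox21, a SOX factor of progenitors, had no called change in WT (8.64 and 9.67 CPM at day 0, 9.74 and 8.78 at day 14) and fell in 6A from 9.41 and 6.54 to 1.35 and 1.25 CPM (interaction -2.59 ± 0.37, adjusted p = 0.0016).

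Neuron genes divided between the lost inductions (8 of 15) and the gained repressions (7 of 15). Map2, a microtubule protein of dendrites (chromosome 1, 66175273 to 66442583), stood at 22.6 and 22.9 CPM in WT and 17.4 and 16.4 in 6A at day 0, and 47.1 and 54.2 in WT and 7.82 and 7.24 in 6A at day 14. Its level rose in WT and fell in 6A, with no overlap on day 14 (interaction -2.32 ± 0.21, adjusted p = 8.0e-05). Ebf3, a helix-loop-helix factor of neurons, was higher in 6A at day 0 (22.7 and 22.6 CPM against 11.4 and 13.8) and lower at day 14 (8.88 and 9.46 against 25.6 and 36.9), so the genotypes changed order (interaction -2.61 ± 0.27, adjusted p = 0.00020). Elavl4, a neuronal RNA-binding protein, rose from 5.43 and 5.01 to 16.3 and 14.0 CPM in WT and fell from 4.19 and 4.54 to 1.83 and 1.74 in 6A (interaction -2.83 ± 0.33, adjusted p = 0.00044). Tubb3, a neuronal tubulin that the stem cells already expressed, fell in both genotypes, from 196 and 191 to 61.6 and 50.1 CPM in WT and from 174 and 153 to 11.4 and 10.7 in 6A (interaction -2.09 ± 0.19, adjusted p = 8.0e-05). Myt1l, a zinc finger repressor of non-neuronal genes, reached 4.75 and 5.54 CPM in WT and 0.193 and 0.193 in 6A at day 14 (interaction -5.77 ± 1.05, adjusted p = 0.0062).

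Called genes of heart and smooth muscle also lay under 0. Of 69 distinct tested members of the cardiac sarcomere, cardiac regulator and smooth muscle lists, 22 were called, each under 0. Of these 22, 14 rose in 6A, 7 had no called change and 1 fell. The sarcomere list had 10 of 25 called (median -2.04), the list of cardiac regulators, calcium handling and peptides 5 of 30 (median -1.04) and the smooth muscle list 7 of 14 (median -0.82). No member was called over 0, and 3.34% of all tested genes were called under 0. The count of cardiac regulators was 1 without 6A day 0 replicate 2, 3 without WT day 14 replicate 1 and 1 without WT day 14 replicate 2.

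Myh7, the slow cardiac myosin heavy chain (mm10, chromosome 14, 54970684 to 54994626), stood at 0.864 and 0.918 CPM in WT and 0.770 and 0.467 in 6A at day 0, and 168 and 171 in WT and 9.08 and 6.95 in 6A at day 14. It rose in both genotypes, and the 6A libraries of day 14 were far under those of WT, with a log2 change of 7.54 in WT and 3.71 in 6A (interaction -3.83 ± 0.49, adjusted p = 0.00077). Ttn, the giant spring of the sarcomere (chromosome 2, 76703980 to 76982547), stood at 29.7 and 36.4 CPM in WT and 33.9 and 33.8 in 6A at day 0, and 736 and 902 in WT and 155 and 151 in 6A at day 14 (interaction -2.44 ± 0.19, adjusted p = 3.1e-05). The groups overlapped at day 0 and did not at day 14. Actn2, the actinin of the Z-disc, rose in WT from 3.83 and 3.25 to 32.7 and 39.7 CPM, and had no called rise in 6A (6.58 and 5.14 to 8.40 and 6.27 CPM, interaction -3.04 ± 0.32, adjusted p = 0.00020). Myl7, the atrial myosin light chain, rose from 8.51 and 4.66 to 61.3 and 51.4 CPM in WT and from 5.47 and 4.67 to 8.79 and 8.01 in 6A (interaction -2.42 ± 0.34, adjusted p = 0.0015). Ankrd1, an ankyrin repeat protein of stressed heart muscle that was on no list, stood at 0.987 and 0.565 CPM in WT and 1.28 and 1.402 in 6A at day 0, and 65.8 and 76.5 in WT and 7.34 and 8.78 in 6A at day 14 (interaction -4.03 ± 0.41, adjusted p = 0.00020). It too rose in both genotypes and by less in 6A.

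Smyd1, a muscle-restricted methyltransferase, reached 35.1 and 35.0 CPM in WT and 6.76 and 6.66 in 6A (interaction -2.70 ± 0.47, adjusted p = 0.0048, and adjusted p = 0.095 without 6A day 0 replicate 2). Tbx5, a T-box factor of heart and forelimb, rose from 5.43 and 3.74 to 16.9 and 17.7 CPM in WT and had no called rise in 6A (7.01 and 7.54 to 8.498 and 10.6, interaction -1.57 ± 0.30, adjusted p = 0.0091), and its call was lost without WT day 14 replicate 2 (adjusted p = 0.060). Not every cardiac regulator was called. Gata4, a zinc finger factor of heart and endoderm, rose to 159 and 133 CPM in WT and 140.0 and 132 in 6A with no called interaction (0.20 ± 0.23, adjusted p = 0.71). Among smooth muscle genes, Cnn1 (calponin) rose from 7.28 and 10.4 to 33.3 and 26.3 CPM in WT and had no called change in 6A (10.1 and 9.08 to 9.27 and 9.07, interaction -1.78 ± 0.28, adjusted p = 0.0031). Myh11, the smooth muscle myosin, rose to 9.16 and 10.4 CPM in WT against 3.09 and 2.22 in 6A (interaction -2.80 ± 0.44, adjusted p = 0.0031). Synpo2, an actin-bundling protein, stood at 54.7 and 58.2 CPM in WT and 12.7 and 12.7 in 6A at day 14 (interaction -1.93 ± 0.32, adjusted p = 0.0038). Acta2, smooth muscle actin, rose in both genotypes, to 1384 and 1160 CPM in WT and 872 and 855 in 6A (interaction -0.77 ± 0.18, adjusted p = 0.023), and its call was lost without 6A day 0 replicate 2, WT day 14 replicate 1 or either 6A library of day 14 (adjusted p from 0.081 to 0.14).

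**Figure D2:**
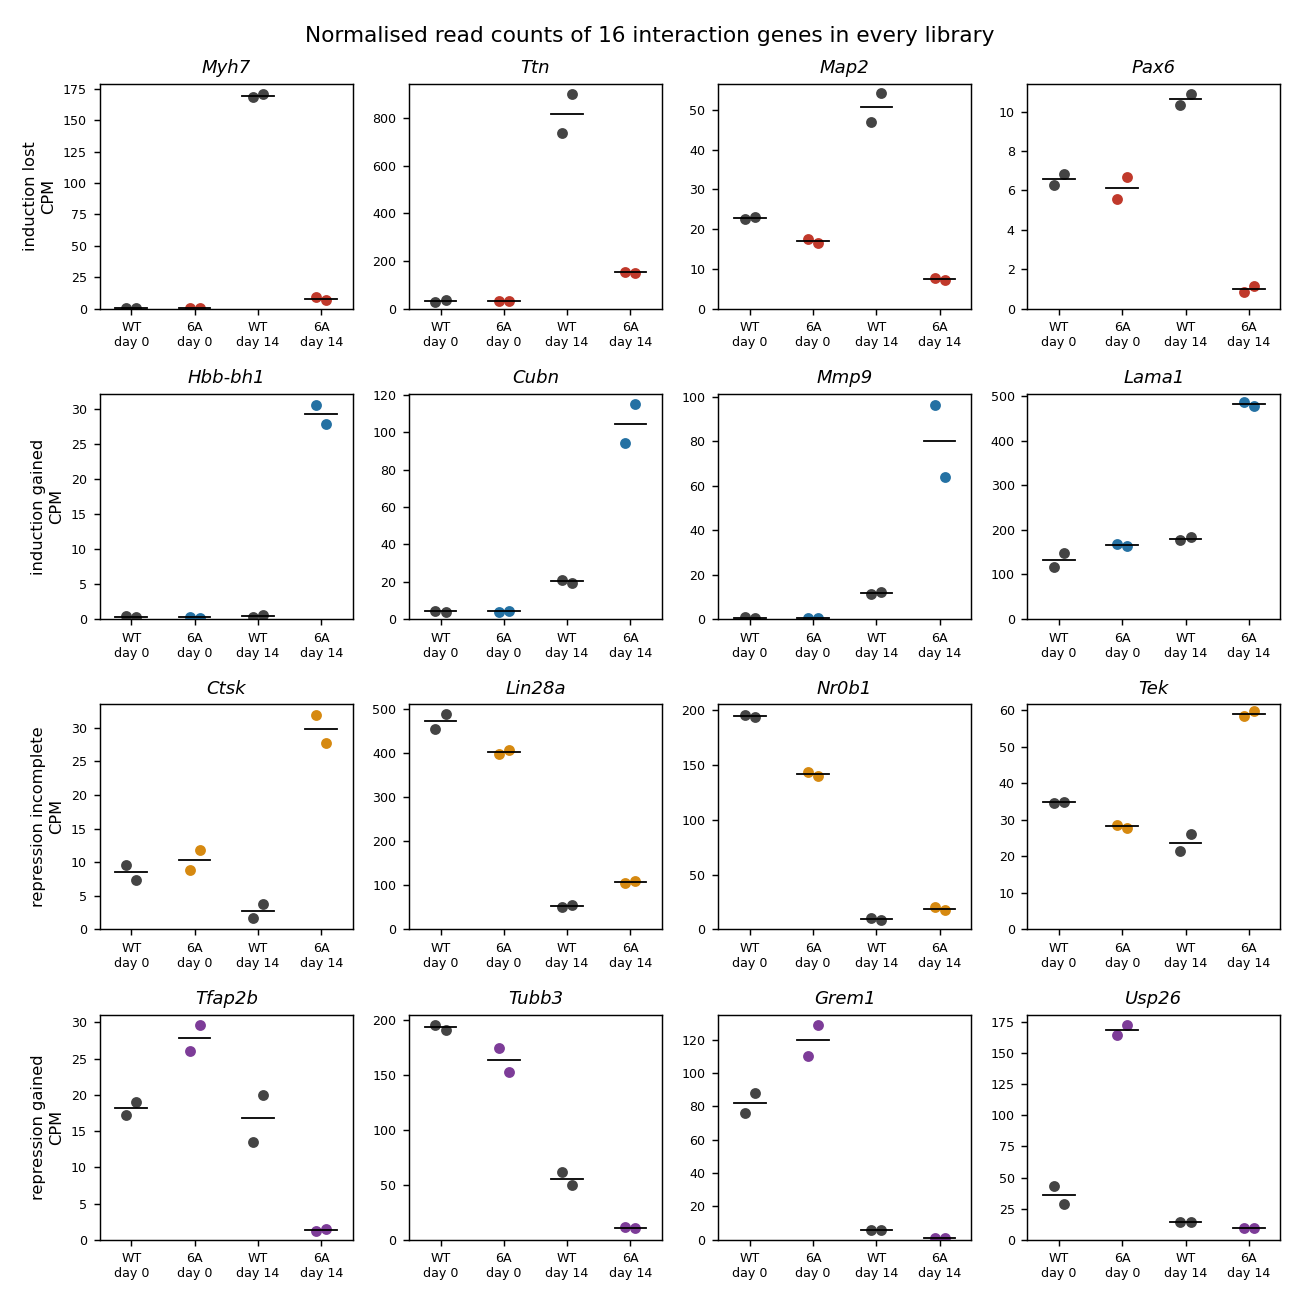
Points are normalised read counts (CPM) of single libraries for 16 called genes, 4 for each response type from top to bottom, and bars are the means of 2 libraries. WT is grey and 6A is coloured by type, and each y axis starts at 0 with its own scale. In the top row the day 14 libraries of 6A lie under those of WT for Myh7, Ttn, Map2 and Pax6, and in the second row they lie above.

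Other lost inductions spread over signalling, skeletal and connective tissue genes. Among Wnt ligands, receptors and inhibitors, 9 of 55 tested were called under 0, against 3.34% of all tested genes, and none over 0 (median -0.32). The count was 5 without 6A day 0 replicate 1 and 4 without WT day 14 replicate 1, WT day 14 replicate 2 or 6A day 14 replicate 2. Fzd3, a Frizzled receptor used in axon guidance, stood at 19.99 and 15.96 CPM in WT and 27.4 and 31.2 in 6A at day 0, and 115 and 139 in WT and 65.3 and 72.3 in 6A at day 14 (interaction -1.61 ± 0.22, adjusted p = 0.0011). It was higher in 6A at day 0 and lower at day 14. Dkk3, a secreted member of the Dickkopf family, rose in WT from 45.2 and 36.4 to 64.4 and 66.9 CPM and fell in 6A from 62.4 and 49.7 to 34.0 and 35.3 (interaction -1.39 ± 0.21, adjusted p = 0.0025). Wif1, a secreted Wnt inhibitor, reached 4.06 and 3.40 CPM in WT and 0.579 and 0.772 in 6A (interaction -3.80 ± 0.60, adjusted p = 0.0031). Rspo2, an agonist that raises Wnt receptor levels, had no called change in WT and fell in 6A from 6.41 and 8.95 to 2.12 and 1.54 CPM (interaction -2.49 ± 0.38, adjusted p = 0.0027).

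Cartilage and growth factor genes were among them. The share called under 0 over all tested genes was 3.34%. Col2a1, the cartilage collagen, stood at 5.68 and 10.3 CPM in WT and 7.18 and 6.14 in 6A at day 0, and 91.6 and 68.1 in WT and 13.2 and 11.005 in 6A at day 14 (interaction -2.39 ± 0.35, adjusted p = 0.0027). It was 1 of 3 cartilage and bone genes called under 0 among 22, beside Sox9 and Spp1, and the count was 1 in each fit without 6A day 0 replicate 2 or a day 14 library. Vegfa, the growth factor of blood vessels, rose from 61.2 and 74.8 to 353 and 339 CPM in WT and from 70.5 and 71.4 to 154 and 171 in 6A (interaction -1.14 ± 0.17, adjusted p = 0.0024). Outside the lists, Fgl2, a fibrinogen-like protein, reached 10.1 and 11.4 CPM in WT and 1.64 and 0.772 in 6A (interaction -4.65 ± 0.70, adjusted p = 0.0024). Slc24a2, a potassium-dependent sodium-calcium exchanger of neurons and retina, reached 21.2 and 28.9 CPM in WT and 2.41 and 3.48 in 6A, with 2 counts in WT at day 0 (adjusted p = 0.0031). Both were under 1 CPM in each library at day 0 and lower in 6A than in WT at day 14.

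Mesenchyme and fibroblast genes had 8 of 33 called under 0, against 3.34% of all tested genes, and none over 0 (median -0.40). Of the 8, 7 were induction lost. Over the tested members the median 6A against WT difference was 0.37 at day 0 and -0.00 at day 14. Postn, a matrix protein of fibroblasts, stood at 42.7 and 37.4 CPM in WT and 56.0 and 59.3 in 6A at day 0, and 703 and 714 in WT and 545 and 570.1 in 6A at day 14 (interaction -0.88 ± 0.16, adjusted p = 0.0062). Its 6A libraries were above those of WT at day 0 and below at day 14. Fap, a fibroblast surface protease, reached 3.59 and 4.03 CPM in WT and 0.869 and 0.483 in 6A (interaction -2.73 ± 0.53, adjusted p = 0.0091). Y-linked genes were higher in 6A at day 0 in sum and nearly absent at day 14. They summed to 28.3 and 28.2 CPM in WT and 43.4 and 46.9 in 6A at day 0, and to 0.0966 CPM at most at day 14. Day 0 cells had grown on feeder fibroblasts, and the part of feeder RNA in these interactions was not tested. The mesenchyme count was 5 without 6A day 0 replicate 2 and without WT day 14 replicate 1, 4 without 6A day 14 replicate 1, and 2 without WT day 14 replicate 2 and without 6A day 14 replicate 2. The call of Fap was lost in the last 2 of these fits (adjusted p = 0.059 and 0.050).

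Embryonic red cell genes were among the responses that were higher in 6A. Of 34 red cell genes in the count tables, 18 were tested. Of these 18, 8 were called over 0 and none under 0 (median 2.15, against -0.01 over all genes), in a background of 1.4% called over 0. Genes near 0 in the other groups, such as Hbb-bh1 and Hba-x, passed the filter on low counts only through 6A at day 14. The filter thus favoured values over 0, and the share and median do not test the list. Of the 8, 3 were induction gained and 5 repression incomplete. The count was 5 without WT day 14 replicate 1 and 3 without WT day 14 replicate 2. Embryonic red cells arise in yolk sac blood islands and carry embryonic globins, and their genes are known targets of the factors GATA1, TAL1 and KLF1.

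Hbb-bh1, an embryonic beta-like globin (mm10, chromosome 7, 103841637 to 103843164), stood at 0.370 and 0.282 CPM in WT and 0.257 and 0.200 in 6A at day 0, and 0.348 and 0.554 in WT and 30.6 and 27.8 in 6A at day 14 (interaction 6.39 ± 0.86, adjusted p = 0.0011). Both 6A libraries of day 14 lay far above the other libraries, which were under 1 CPM. Hba-x, the embryonic alpha-like globin zeta (chromosome 11, 32276400 to 32278116), stood at 0.740 and 0.141 CPM in WT and 0 and 0.0668 in 6A at day 0, and 0.464 and 0.316 in WT and 27.6 and 29.0 in 6A at day 14, with 1 count in all in 6A at day 0 (adjusted p = 0.0012). Globin genes are close copies, and the sources used here do not give how shared reads were counted. Hbb-y, another embryonic globin, was at 0.580 and 0.0791 CPM in WT and 16.7 and 18.3 in 6A at day 14, and was not called (adjusted p = 0.32). It had 1 count in WT and 2 in 6A at day 0. Tal1, a helix-loop-helix factor of blood stem cells, rose in 6A from 2.74 and 4.41 to 9.56 and 10.3 CPM with no called change in WT (interaction 1.53 ± 0.36, adjusted p = 0.029). Its call was lost without WT day 0 replicate 1, 6A day 0 replicate 1 or any 1 of the 4 day 14 libraries (adjusted p from 0.051 to 0.11). Gata1, the X-linked erythroid factor, fell from 3.21 and 3.95 to 0.232 and 0.158 CPM in WT and from 4.36 and 4.81 to 1.06 and 1.93 in 6A (interaction 2.58 ± 0.69, adjusted p = 0.049). That call was also lost with DESeq2 (0.12) and without WT day 0 replicate 2, either 6A library of day 0, either WT library of day 14 or 6A day 14 replicate 2 (adjusted p from 0.086 to 0.27). Slc4a1, the anion exchanger of the red cell membrane, fell in WT from 1.11 and 0.989 to 0.348 and 0.158 CPM and rose in 6A from 0.684 and 0.534 to 2.22 and 3.48 (interaction 4.31 ± 0.77, adjusted p = 0.0059, with adjusted p = 0.064 without WT day 14 replicate 2). Pklr, the red cell and liver pyruvate kinase, gave 1 count in WT and 23 in 6A over both day 14 libraries (adjusted p = 0.0096, but 0.059 and 0.057 without WT day 14 replicate 1 and 2). Car2, a carbonic anhydrase, fell in both, to 22.5 and 19.2 CPM in WT and 50.7 and 46.0 in 6A (interaction 0.95 ± 0.20, adjusted p = 0.015), and lost its call without 6A day 0 replicate 2 (0.067), WT day 14 replicate 2 (0.11) or 6A day 14 replicate 1 (0.076).

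The promoters of 4 of the 8 called red cell genes, those with an entry in RefSeq (build GRCm38.p6), are shown because these genes were called over 0 together. Each runs from 250 bases before to 50 after a transcription start, 5′ to 3′ on the gene's strand: Hba-x (chr11:32276350-32276649, plus strand), Tal1 (chr4:115056176-115056475, plus strand), Gata1 (chrX:7967861-7968160, minus strand) and Pklr (chr3:89135892-89136191, plus strand). For Tal1 and Pklr the first of their 2 listed starts is given. Capitals mark the letters AGATAA or TGATAA, the core bound by GATA factors, and CCACCC, the core bound by KLF factors, read on both strands.
Hba-x: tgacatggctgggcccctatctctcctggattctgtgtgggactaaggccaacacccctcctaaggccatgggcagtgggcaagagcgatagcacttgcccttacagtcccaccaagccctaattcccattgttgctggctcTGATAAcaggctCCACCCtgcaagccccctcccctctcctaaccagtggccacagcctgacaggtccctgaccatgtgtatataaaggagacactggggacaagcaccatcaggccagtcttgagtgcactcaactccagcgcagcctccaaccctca
Tal1: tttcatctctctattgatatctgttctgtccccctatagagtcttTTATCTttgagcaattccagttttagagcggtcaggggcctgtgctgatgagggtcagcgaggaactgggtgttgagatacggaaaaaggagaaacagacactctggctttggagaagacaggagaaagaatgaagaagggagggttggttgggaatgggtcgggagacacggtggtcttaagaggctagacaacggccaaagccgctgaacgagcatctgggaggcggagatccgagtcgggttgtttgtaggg
Gata1: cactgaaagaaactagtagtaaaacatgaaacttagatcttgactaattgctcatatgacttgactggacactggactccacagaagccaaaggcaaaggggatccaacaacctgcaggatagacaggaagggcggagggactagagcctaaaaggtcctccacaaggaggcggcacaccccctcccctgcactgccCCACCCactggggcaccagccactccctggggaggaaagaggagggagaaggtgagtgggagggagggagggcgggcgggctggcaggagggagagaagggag
Pklr: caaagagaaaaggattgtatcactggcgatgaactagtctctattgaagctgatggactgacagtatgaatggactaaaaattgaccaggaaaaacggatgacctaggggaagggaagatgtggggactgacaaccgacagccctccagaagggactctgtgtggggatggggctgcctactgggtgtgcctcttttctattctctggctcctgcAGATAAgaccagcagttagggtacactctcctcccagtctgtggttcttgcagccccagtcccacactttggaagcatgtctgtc
Hba-x held a GATA and a CCACCC match, Tal1 and Pklr a GATA match, and Gata1 a CCACCC match. The second listed starts of Tal1 and Pklr held neither. Over all 32851 promoters of this length in the table, 18.61% held a GATA match and 31.48% a CCACCC match, and over the promoters of tested genes 10.57% and 37.85%. A match is a description and not a binding site.

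Genes of macrophages, osteoclasts, vessels and yolk sac endoderm were also among those over 0. Macrophage and osteoclast genes had 4 of 30 called over 0 and none under 0 (median 0.90), endothelial genes 3 of 26 (median 0.46) and visceral endoderm genes 4 of 36 over and 1 under 0 (median -0.08). Over all tested genes 1.4% were called over 0. Called or not, 15 visceral endoderm genes had an interaction over 0 and 21 under 0, so the called genes do not speak for that list. Mmp9, a matrix protease of osteoclasts and macrophages, rose to 11.5 and 12.3 CPM in WT and 96.6 and 64.0 in 6A from under 1 CPM in all day 0 libraries (interaction 3.13 ± 0.69, adjusted p = 0.019). Its call was lost without WT day 0 replicate 1 (0.13) and without WT day 14 replicate 1 (0.059) or 2 (0.059). Acp5, the tartrate-resistant phosphatase of osteoclasts, stood at 4.57 and 4.80 CPM in WT and 7.78 and 9.01 in 6A at day 0, and 4.06 and 4.82 in WT and 28.5 and 23.3 in 6A at day 14 (interaction 1.69 ± 0.29, adjusted p = 0.0051). It was higher in 6A at day 14 and had no called change in WT. Laptm5, a lysosomal membrane protein of blood cells, had no called change in WT and rose in 6A from 29.5 and 37.1 to 54.9 and 68.2 CPM (interaction 1.18 ± 0.22, adjusted p = 0.0064). Csf1r, the receptor that defines macrophages, was at 49.3 and 49.9 CPM in WT and 118 and 109.8 in 6A at day 14, with no called interaction (adjusted p = 0.27). The endothelial count was 5 without WT day 0 replicate 1 and 1 without 6A day 0 replicate 2 or WT day 14 replicate 2.

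Cubn, an endocytic receptor of yolk sac endoderm and kidney (chromosome 2, 13276338 to 13491813), stood at 4.32 and 3.95 CPM in WT and 3.85 and 4.34 in 6A at day 0, and 21.1 and 19.1 in WT and 94.2 and 115 in 6A at day 14. The groups overlapped at day 0, and both 6A libraries of day 14 were above those of WT (interaction 2.38 ± 0.26, adjusted p = 0.00027). Lrp2, the partner receptor of Cubn, rose from 47.8 and 58.5 to 65.4 and 73.2 CPM in WT and from 38.2 and 38.8 to 116 and 120.1 in 6A (interaction 1.24 ± 0.18, adjusted p = 0.0022). Trf, the iron carrier transferrin, rose to 6.03 and 5.22 CPM in WT and 11.5 and 9.56 in 6A (interaction 2.21 ± 0.41, adjusted p = 0.0075). Foxa1, an endoderm factor, went the other way, with 36.6 and 34.2 CPM in WT and 7.05 and 9.36 in 6A at day 14 (interaction -2.92 ± 0.71, adjusted p = 0.032), and lost its call without WT day 0 replicate 1, 6A day 0 replicate 2, either WT library of day 14 or 6A day 14 replicate 1 (adjusted p from 0.067 to 0.53). Afp, the main secreted protein of yolk sac endoderm, was at 91.9 and 95.3 CPM in WT and 88.2 and 98.2 in 6A, with no called interaction (adjusted p = 0.54). Lama1, a laminin chain of the basement membrane under this epithelium, stood at 116 and 149 CPM in WT and 169 and 164 in 6A at day 0, and 176 and 184 in WT and 487 and 478 in 6A at day 14 (interaction 1.09 ± 0.18, adjusted p = 0.0032). Its rise was larger in 6A.

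For some gained inductions the genotypes were called different at day 0 and not at day 14. Fgf5, a growth factor of the primed epiblast, was at 1.11 and 1.91 CPM in WT and at 0.0855 and 0.0668 in 6A at day 0 (36 against 2 counts), and at 4.29 and 4.59 CPM in WT and 6.76 and 8.98 in 6A at day 14 (adjusted p of the interaction = 0.0015). Lef1, a transcription factor of Wnt signalling, stood at 7.65 and 10.6 CPM in WT and 1.97 and 2.20 in 6A at day 0, and 25.5 and 30.0 in WT and 18.0 and 24.8 in 6A at day 14 (interaction 1.76 ± 0.33, adjusted p = 0.0072). In both, the larger rise in 6A came with a lower level at day 0. The day 14 libraries of the genotypes still did not overlap, 6A being higher for Fgf5 and lower for Lef1. Of all tested genes 1.4% were called over 0. Fgf5 and Lef1 were 2 of 3 called genes among 26 of the primed state and primitive streak list (median 0.54, none under 0). The third, Dnmt3b, a de novo DNA methyltransferase, fell in both genotypes, from 255 and 311 to 45.9 and 40.7 CPM in WT and from 216 and 223 to 68.0 and 70.5 in 6A (interaction 1.05 ± 0.18, adjusted p = 0.0043).

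Incomplete repression included pluripotency genes. Of 34 tested, 7 were called over 0, against 1.4% of all tested genes, and none under 0 (median 0.47). Each of the 7 fell in both genotypes and fell less in 6A. The count was 3 without either 6A library of day 0 or either WT library of day 14, and 4 without either 6A library of day 14. Lin28a, an RNA-binding protein that blocks let-7 maturation (chromosome 4, 134003330 to 134018841), stood at 455 and 489 CPM in WT and 398 and 407 in 6A at day 0, and 49.7 and 55.3 in WT and 106 and 109 in 6A at day 14. The 6A libraries were below those of WT at day 0 and above them at day 14 (interaction 1.26 ± 0.16, adjusted p = 0.00059). Nr0b1, an X-linked nuclear receptor of stem cells, stood at 196 and 193 CPM in WT and 143 and 139.5 in 6A at day 0, and 10.4 and 9.01 in WT and 20.3 and 17.7 in 6A at day 14 (interaction 1.43 ± 0.18, adjusted p = 0.00077). Like Lin28a, it was lower in 6A at day 0 and higher at day 14. Dnmt3l, the cofactor of de novo methylation, fell from 286 and 292 to 22.0 and 22.5 CPM in WT and from 267 and 246 to 35.5 and 37.4 in 6A (interaction 0.88 ± 0.16, adjusted p = 0.0062). Nanog, a core factor of pluripotency, was at 90.3 and 102 CPM in WT and 139 and 145 in 6A at day 14 with no called interaction (0.39 ± 0.18, adjusted p = 0.26). Pou5f1, the other core factor, varied between libraries at day 0 (199 and 546 in WT, 317 and 401 in 6A) and was not called (adjusted p = 0.89). Without WT day 0 replicate 2 Nanog was called (adjusted p = 0.047), as was Pou5f1 without WT day 0 replicate 1 (0.025).

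Among other members of this type, Ctsk, Vrtn, Tek and Pstpip1 fell in WT and rose in 6A. Ctsk, cathepsin K of osteoclasts (chromosome 3, 95499256 to 95509362), stood at 9.63 and 7.41 CPM in WT and 8.81 and 11.9 in 6A at day 0, and 1.62 and 3.72 in WT and 32.0 and 27.8 in 6A at day 14. It fell in WT and rose in 6A, with groups that overlapped at day 0 and not at day 14 (interaction 3.10 ± 0.39, adjusted p = 0.00080). Vrtn, a gene known for vertebra number in pigs, started lower in 6A and ended higher, at 10.983 and 7.70 CPM in WT and 3.33 and 2.94 in 6A at day 0, and 3.25 and 4.59 in WT and 12.1 and 10.1 in 6A at day 14 (interaction 3.02 ± 0.36, adjusted p = 0.00050). Tek, the angiopoietin receptor of endothelium, fell in WT from 34.7 and 35.0 to 21.4 and 26.2 CPM and rose in 6A from 28.6 and 27.9 to 58.4 and 59.8 (interaction 1.61 ± 0.19, adjusted p = 0.00050). Pstpip1, a cytoskeletal adaptor of blood cells, fell in WT from 4.32 and 5.44 to 2.09 and 2.29 CPM and rose in 6A from 3.93 and 3.47 to 8.21 and 6.85 (interaction 2.19 ± 0.36, adjusted p = 0.0035). Gsta3, a glutathione transferase, fell in WT from 19.7 and 16.03 to 4.17 and 5.93 CPM while 6A stood at 16.5 and 16.8 and then 18.8 and 19.5 (interaction 1.99 ± 0.27, adjusted p = 0.0011). Tm4sf5, a tetraspan membrane protein, behaved likewise, with 0.811 and 0.949 CPM in WT and 6.18 and 5.41 in 6A at day 14 (interaction 2.58 ± 0.44, adjusted p = 0.0044).

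Members of other lists were also called over 0, against 1.4% of all tested genes. Of the Polycomb calls, 2 were repression incomplete and 1 was induction gained. Among Polycomb genes 3 of 39 were called over 0 and none under 0 (median 0.01), and none was called without WT day 14 replicate 1 and 1 without WT day 14 replicate 2 or 6A day 14 replicate 1. Cbx7, a chromobox subunit of Polycomb repressive complex 1, fell to 25.5 and 27.6 CPM in WT and 40.8 and 44.0 in 6A (interaction 0.96 ± 0.18, adjusted p = 0.0085, with adjusted p = 0.055 without WT day 14 replicate 1). The list of ATF4 targets and amino acid synthesis had 5 of 32 over and 1 under 0 (median 0.36). Its count over 0 was 1 or 0 in each fit without a 6A day 0 or a day 14 library. Mthfd2, a mitochondrial folate enzyme, had the smallest adjusted p of them, at 28.6 and 26.3 CPM in WT and 44.3 and 39.2 in 6A at day 14 (interaction 0.78 ± 0.17, adjusted p = 0.015), and lost its call without 6A day 0 replicate 2 (0.076), WT day 14 replicate 2 (0.098) or 6A day 14 replicate 1 (0.094).

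Repression gained held 130 genes. Tfap2b, an AP-2 factor of neural crest and kidney (mm10, chromosome 1, 19208914 to 19238576), stood at 17.3 and 19.1 CPM in WT and 26.0 and 29.6 in 6A at day 0, and 13.6 and 19.9 in WT and 1.26 and 1.54 in 6A at day 14. WT had no called change, and both 6A libraries of day 14 were under 2 CPM (interaction -4.20 ± 0.33, adjusted p = 3.1e-05). Grem1, a secreted antagonist of bone morphogenetic proteins, fell in WT from 76.1 and 87.8 to 6.14 and 5.85 CPM and further in 6A, from 110.5 and 129 to 1.16 and 0.869 (interaction -3.09 ± 0.30, adjusted p = 0.00011). Scn3a, a sodium channel of embryonic neurons, stood at 16.5 and 17.6 CPM in WT and 13.6 and 17.8 in 6A at day 0, and 11.7 and 10.7 in WT and 1.16 and 1.25 in 6A at day 14 (interaction -3.08 ± 0.32, adjusted p = 0.00022). Cp, the copper carrier ceruloplasmin, fell in 6A from 7.52 and 8.48 to 0.966 and 0.676 CPM, with 5.68 and 5.15 and then 5.10 and 4.19 in WT (interaction -3.05 ± 0.40, adjusted p = 0.00093). At day 14 the genotypes did not overlap for any of them, as for 56.7% of all tested genes at day 14, against 45.6% at day 0. Tfap2b and Grem1 were higher in 6A at day 0. So were the Y-linked genes in sum (43.4 and 46.9 CPM in 6A, 28.3 and 28.2 in WT). The part of feeder RNA in these day 0 levels was not tested.

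Called testis-type genes of the X chromosome, and most of the called autosomal germline genes, had a higher day 0 level in 6A and no called difference at day 14. X-linked testis-type genes had 5 of 35 called under 0 and none over 0 (median -1.07), 3 without WT day 14 replicate 2. Of all tested genes 3.34% were called under 0. A group at 3 or fewer counts was present for 9 of the 35 tested members. Over the tested list the median 6A against WT difference was 1.48 at day 0 and 0.15 at day 14. The list was chosen with earlier results of these data known, so its share and medians describe it and do not test it. Usp26, a deubiquitinase of the testis (chromosome X, 51753959 to 51801233), stood at 43.1 and 28.7 CPM in WT and 165 and 173 in 6A at day 0, and 13.9 and 14.0 in WT and 9.17 and 9.85 in 6A at day 14 (interaction -2.80 ± 0.25, adjusted p = 8.0e-05). The 6A libraries of day 0 stood above the other 6. Scml2, a Polycomb-related protein of the germline, was at 13.7 and 17.1 CPM in WT and 82.9 and 79.3 in 6A at day 0, and at 19.2 and 20.6 in WT and 23.0 and 21.7 in 6A at day 14 (interaction -2.22 ± 0.20, adjusted p = 8.0e-05). Since its small WT rise was called, it counts as induction lost, although its level at day 14 was not called different. Efhc2, an EF-hand protein, went from 45.1 and 47.6 CPM to 1.74 and 1.16 in 6A and from 10.7 and 6.28 to 1.51 and 1.58 in WT (interaction -2.59 ± 0.47, adjusted p = 0.0062, with adjusted p = 0.088 without WT day 14 replicate 2). Xlr3b and Xlr5a (interaction -1.95 ± 0.35 and -3.42 ± 0.61) complete the 5, and belong to a family of close copies whose reads may be shared. The call of Xlr5a was lost without WT day 14 replicate 2 (adjusted p = 0.063).

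Autosomal germline genes had 5 of 32 called under 0 and none over 0 (median -0.37), and 3 without 6A day 0 replicate 2, either WT library of day 14 or 6A day 14 replicate 1. Dazl, which binds RNA in germ cells, stood at 4.32 and 3.88 CPM in WT and 13.9 and 14.1 in 6A at day 0, and 7.65 and 8.14 in WT and 7.05 and 7.43 in 6A at day 14 (interaction -1.91 ± 0.27, adjusted p = 0.0017). It was high in 6A at day 0, and the day 14 difference was not called (-0.13, log2). Tex15, a testis protein that acts in transposon silencing, fell in WT from 27.9 and 28.8 to 16.8 and 18.5 CPM and in 6A from 63.3 and 74.0 to 18.4 and 17.9 (interaction -1.24 ± 0.20, adjusted p = 0.0031). Tuba3b, a testis tubulin with near-identical copies, went from 30.2 and 31.3 to 11.6 and 10.5 CPM in WT and from 73.5 and 69.7 to 10.9 and 9.36 in 6A (interaction -1.34 ± 0.21, adjusted p = 0.0028). For both, the genotypes overlapped at day 14 and 6A was higher at day 0. Among all tested genes 3.34% were called under 0, against the 5 of 32 of this list.

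The day that carried the interaction differed between genes. The genotypes were called different at day 14 only for 583 of the 733 genes, at day 0 only for 59, on both days for 21 and on neither day for 70. Among the 583, 421 were lower in 6A at day 14 and 162 higher. Among the 59, 35 were higher in 6A at day 0 and 24 lower. X-linked genes made up 11 of the 35 and none of the 24, and 590 of all 15458 tested genes. Over all tested genes, 1.06% were called higher and 0.518% lower in 6A at day 0, and 5.33% higher and 8.31% lower at day 14. These calls come from the same fit and describe the interaction; they do not test it again. The 59 were 24 without 6A day 0 replicate 1, 14 without 6A day 0 replicate 2, 103 without WT day 0 replicate 1, 21 and 20 without WT day 14 replicate 1 and 2, and 26 without 6A day 14 replicate 1.

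**Figure D3:**
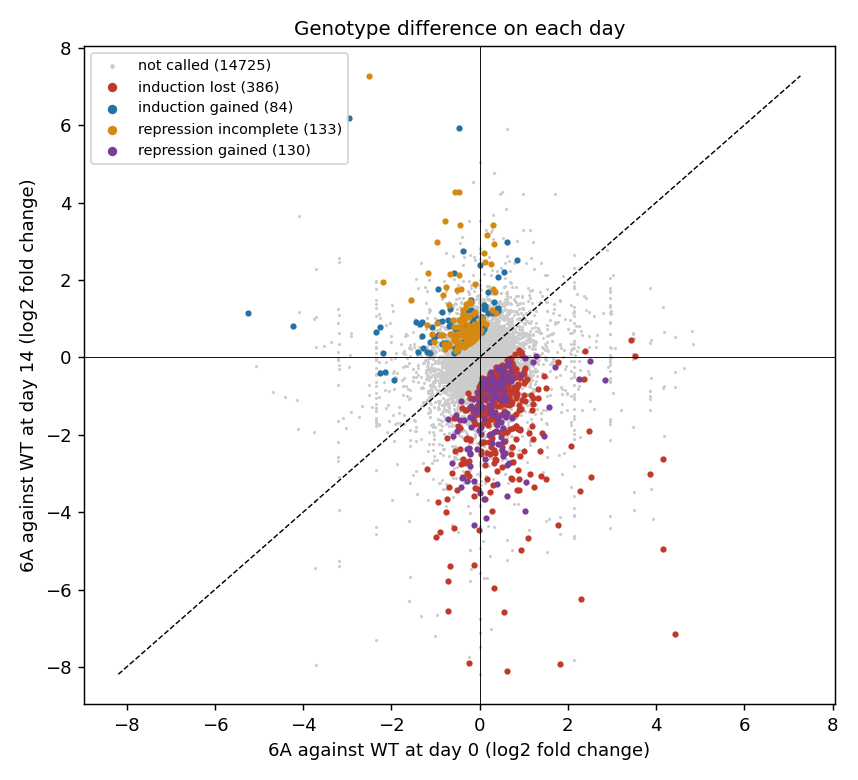
Each point is 1 tested gene, with the log2 fold change of 6A against WT at day 0 on the x axis and at day 14 on the y axis. Colours mark response types and the dashed line marks equal differences on both days. Most induction lost and repression gained genes lie low near the middle of the x axis, where 421 genes were called lower in 6A at day 14 only. Columns of grey points come from genes with very few counts in a group.

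On the X chromosome, 36 of 590 tested genes were called (6.10%, against 4.74% of all tested genes), 27 under 0 and 9 over 0. The median interaction was -0.12 for X-linked genes and -0.01 for the others. By type, 14 were induction lost, 2 induction gained, 7 repression incomplete and 13 repression gained. The X-linked median difference of 6A against WT was 0.17 at day 0 and 0.09 at day 14, so the median was over 0 on both days and smaller after differentiation. Of the 36 genes, 11 differed at day 0 only and 23 at day 14 only.

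**Figure D4:**
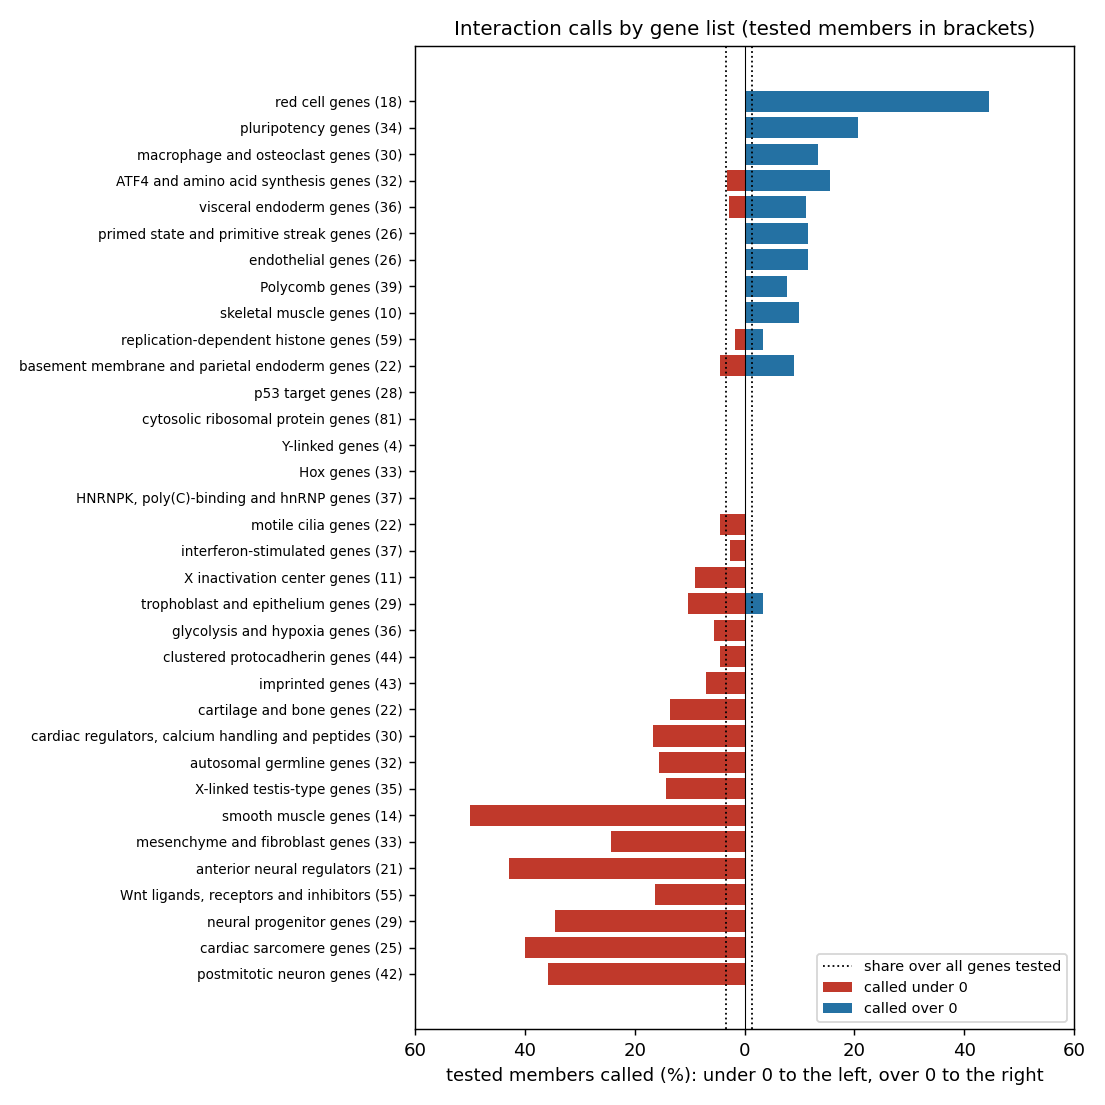
Bars give the share of tested members of each of 34 gene lists with a called interaction, under 0 to the left in red and over 0 to the right in blue. Dotted lines mark the shares over all tested genes, 3.34% under 0 and 1.4% over 0. Smooth muscle (7 of 14), anterior neural (9 of 21) and cardiac sarcomere genes (10 of 25) have the longest bars to the left, and red cell genes (8 of 18) the longest to the right.

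Several lists had no called member. Among 37 HNRNPK, poly(C)-binding and hnRNP genes edgeR called none, with 1 over and 2 under 0 at an unadjusted p under 0.05, and DESeq2 called none. Without WT day 0 replicate 1 or 2, 1 of them was called. Among 33 Hox genes, the regulators of body position, edgeR called none, with 6 over 0 at an unadjusted p under 0.05, and DESeq2 called none. Without WT day 0 replicate 2, and with no filter on low counts, 2 Hox genes were called over 0. Among 28 p53 targets edgeR and DESeq2 called none (3 over and 1 under 0 unadjusted), and 1 was called with no filter. Among 81 cytosolic ribosomal protein genes edgeR called none and DESeq2 1 (4 over 0 unadjusted), and 1 was called without WT day 0 replicate 1 or 6A day 0 replicate 1. The Y-linked list had 4 tested genes and no call by either tool or at an unadjusted p under 0.05.

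The remaining lists had few calls, some at or near the 3.34% under 0 and 1.4% over 0 of all tested genes, and most of the calls were lost in at least 1 fit that leaves out a library. Ranges are over the 8 fits that each leave out 1 library. Imprinted genes had 3 of 43 under 0 (range 0 to 3), the growth factor Igf2, Usp29 and the antisense RNA Airn. Airn overlaps Igf2r, and without strand in the counting the reads of the 2 cannot be told apart. The lowest counts of imprinted genes came without 6A day 0 replicate 2, WT day 14 replicate 2 or 6A day 14 replicate 1. Glycolysis and hypoxia genes had 2 of 36 under 0 (range 1 to 4), Vegfa and the collagen hydroxylase P4ha2. Clustered protocadherins had 2 of 44 under 0 (range 1 to 2), Pcdhac2 and Pcdhgc3, which lie in clusters with shared constant exons. Interferon-stimulated genes had 1 of 37 under 0 (range 0 to 1), Ifit1. Motile cilia genes had 1 of 22 under 0 (range 0 to 1), Gmnc, a regulator of multiciliated cells. The X inactivation center list had 1 of 11 under 0 in each of these fits (median -0.12). Replication-dependent histones, a family of near-identical copies, had 1 of 59 under 0 (range 0 to 1) and 2 over 0 (range 0 to 3). Their summed level was higher in replicate 1 than in replicate 2 of each of the 4 groups. Trophoblast and epithelium genes had 3 of 29 under 0 (range 1 to 3), the AP-2 factors Tfap2a and Tfap2b and the zinc finger factor Gata3, and 1 over 0 (range 0 to 1), Tfap2c. Basement membrane genes had 1 of 22 under 0 (range 0 to 3) and 2 over 0 (range 1 to 2), Lama1 and Nid2. Skeletal muscle genes had 1 of 10 over 0 in each of these fits, Actn3, the actinin of fast fibers.

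Of 12 alternative fits, Vegfa, Pcdhac2 and Actn3 were called in each. Igf2 and Tfap2a were called in 8, Nid2 in 7, Tfap2c in 6, Usp29 and P4ha2 in 5, Ifit1 in 4, Airn in 3, and Gata3 and Pcdhgc3 in 2. Gmnc was called in 9 of the 11 that could give it an adjusted p. Gata3 lost its call in each fit that left out a library, with DESeq2 and with no filter (adjusted p up to 0.15). RLE scaling and DESeq2 also ended the calls of Airn, Ifit1 and Pcdhgc3. The 12 fits do not include the fit to reads assigned to CAST. In that fit Vegfa (-0.46 ± 0.51), Igf2, Nid2, Tfap2c, Ifit1 and Gata3 were not called.

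Gene length was not used to form the types. The median genomic span was 46.4 kb for induction lost, 47.3 kb for repression gained, 33.1 kb for induction gained and 18.0 kb for repression incomplete, against 23.3 kb over all tested genes. A span was known for 96.41% of all tested genes and for a larger share of each type. Span was not adjusted for, and its part in the calls was not tested. Of the 733 genes, 146 were members of a list and 587 of none. At the threshold, the last called gene was Nr4a2, an orphan nuclear receptor (-1.15, adjusted p = 0.04999), and the first uncalled gene was Zp3, an egg coat glycoprotein (adjusted p = 0.0501).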

How the data were processed

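RNA-seq libraries of ribosomal RNA-depleted total RNA, 2 per group, were deposited as tables of read counts per gene, with columns for all reads and for reads assigned to an allele. Reads were trimmed with cutadapt 1.4.2 and aligned with STAR 2.7.10a to mm10, per the submitters' processing notes. The counter, its annotation and its strand setting are unknown (not given in the sources used here), although the kit is directional per the labels' protocols. The whole-read count column the authors deposited (all reads, alleles combined) was used as it stands.

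Genes with low counts were removed with edgeR 4.0.16 (filterByExpr), libraries were scaled by TMM, and a quasi-likelihood model with 1 term per group was fitted to all 8 libraries in R 4.3.3. The interaction was tested as a contrast of the 4 terms, two-sided, with Benjamini-Hochberg adjustment over 15458 genes. A gene was called at an adjusted p under 0.05. Errors after ± are standard errors on the log2 scale, with n = 2 libraries per group, and CPM values are TMM-scaled. The steps were tested on simulated data.

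Among genes called under 0, those with a called WT rise were induction lost and the others, with a called 6A fall, repression gained. Among genes called over 0, those with a called WT fall were repression incomplete and the others, with a called 6A rise, induction gained. Genes were named by a rule: Hnrnpk, Xist and Tsix; per response type the 7 largest absolute interactions with over 3 counts in each group and a mean of at least 5 CPM in 1 group; per type the 4 most abundant genes with a group at 3 or fewer counts; and per list up to 4 called members with the smallest adjusted p. A further 15 genes (Acta2, Afp, Car2, Csf1r, Efhc2, Foxa1, Gata1, Gata4, Hbb-y, Nanog, Otx2, Pou5f1, Six3, Tal1 and Zic1) were chosen after their values were seen. Some genes that the rule names are not reported here. The members and lists were chosen with earlier results of these data known. The protocol calls the libraries biological replicates without naming separate cultures, so p-values measure only the spread between these samples. Alternatives were RLE scaling, DESeq2 1.42.0, no filter, a replicate block, reads assigned to CAST, an absolute interaction over 1, and each library left out. Gene coordinates are those of GENCODE for mm10, and promoters those of RefSeq for GRCm38.p6.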

Additional observations from a re-analysis of the deposited data

Results flagged for a closer look

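The day effect was compared between the genotypes by the interaction itself, with edgeR's quasi-likelihood test, and the effects differed for 733 genes. For 60 of them WT rose and 6A fell, and for 20 WT fell and 6A rose, each change called on its own. Among the named genes that fell in WT and rose in 6A, the interaction was 3.10 for Ctsk, 3.02 for Vrtn, 2.19 for Pstpip1, 4.31 for Slc4a1 and 1.61 for Tek. Among those that rose in WT and fell in 6A, it was -3.27 for Pax6, -2.32 for Map2, -2.61 for Ebf3, -2.83 for Elavl4, -2.73 for Fap, -1.39 for Dkk3, -3.80 for Wif1, -1.91 for Dazl, -2.22 for Scml2 and -2.74 for Pcdhac2. Ctsk, Tek, Slc4a1 and Pstpip1 are known from osteoclasts, endothelium and blood cells, and Pax6, Map2, Ebf3, Elavl4 and Pcdhac2 from neural cells. Dazl and Scml2, both germline genes, had a higher level in 6A at day 0 and no called difference at day 14.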

How the results depend on the processing

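Each called gene that could be fitted kept the direction of its interaction with RLE scaling, DESeq2, no filter, the replicate block and each library left out, and of 130 named called genes 68 stayed called in all of these. RLE scaling called 740 genes, DESeq2 608 (600 genes had no adjusted p), no filter 984 of 20359. The response type was less stable than the direction. Of the 733 called genes, 672 kept their type with RLE scaling, 539 with DESeq2, 699 with no filter and 728 with the replicate block. Across these fits and those that leave out a library, most genes of each type lost that type in at least 1 fit. Over the fits that leave out 1 library, the calls ranged from 280 to 835, those over 0 from 69 to 295, those under 0 from 211 to 587, induction lost from 154 to 439, induction gained from 32 to 105, repression incomplete from 37 to 190 and repression gained from 57 to 148. Genes whose genotypes differed at day 14 only ranged from 232 to 630, at day 0 only from 14 to 103, on both days from 1 to 46 and on neither from 24 to 128.

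With an absolute interaction over 1 there were 130 genes over 0, 66 repression incomplete, 34 differing at day 0 only and 41 on neither day. With DESeq2, 13 differed on both days. With no filter there were 416 over 0, 149 induction gained, 267 repression incomplete, 91 differing at day 0 only, 45 on both days and 135 on neither. With the replicate block there were 1018 calls, 362 over 0, 250 repression incomplete, 104 differing at day 0 only, 58 on both days and 126 on neither. No label says that a replicate number marks a shared culture or day, so the samples were taken to share only a number. Correlations of same-numbered deviations ran from 0.012 to 0.385, with 5 of 6 over 0.1. The block called 12 histone, 11 pluripotency and 6 endothelial genes over 0, 7 glycolysis and hypoxia genes under 0, and 1 p53 target and 1 ribosomal protein gene over 0. With no filter the calls over 0 were 5 histone, 11 pluripotency, 7 endothelial, 7 macrophage and osteoclast and 4 trophoblast and epithelium genes. DESeq2 called 4 histone genes and RLE scaling 5 endothelial genes over 0.

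Reads assigned to CAST gave 6138 fitted genes and 11 calls, 4 over 0 and 7 under 0, with 4 induction lost, 1 induction gained, 3 repression incomplete and 3 repression gained, and 7, 3, 1 and 0 genes differing at day 14 only, day 0 only, both days and neither. Of 303 called genes fitted there, 281 kept their direction. Among named genes the sign was opposite for Cacna1c (0.14 ± 0.92), Gata3 (0.97 ± 1.38), Cbx7 (-0.29 ± 1.06), Mthfd2 (-1.63 ± 1.29) and Xdh (-0.27, with a standard error of 624), none of them called there (adjusted p from 0.80 to 1.00), and the cause was not tested. The median of the X inactivation center list was -0.12, and -0.37 with groups at 3 or fewer counts set to 3. A group at 3 or fewer counts was present in 26 induction lost, 3 induction gained, 6 repression incomplete and 6 repression gained genes.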
